A study of Mus musculus with 9 samples.

Results

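Tenascin C (Tnc), fibronectin (Fn1), transforming growth factor beta induced protein (Tgfbi) and connective tissue growth factor (Ctgf) were examined as 4 secreted matrix genes that TGF-beta is known to induce. They were taken by gene symbol, 4 of the 1908 genes that carry a symbol in the authors' deposited tables. Each had 1 probe set in those tables. Most of the 41345 probe sets on the array carry no name here, so any further probe set of these genes would be missed. RNA came from whole lungs, 3 arrays for each of 3 groups of male C57BL/6J mice. Mice of the bleomycin plus homoharringtonine group received 2 U/kg bleomycin into the trachea at 8 weeks of age and then homoharringtonine at 0.545 mg/kg into the peritoneum, which began after 5 days and was repeated 2 times a week for 15 days. Mice of the bleomycin group received the same instillation and, by the protocol, vehicle injections on that schedule. The vehicle group received vehicle injections and, by the protocol, an instillation of phosphate-buffered saline in place of bleomycin. Lungs of all groups were from mice 11 weeks old. Bleomycin is an antibiotic that breaks DNA and scars the rodent lung, and homoharringtonine is a plant alkaloid that blocks protein synthesis on the ribosome.

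The arrays hold log2 signals, with medians from 4.49 to 4.57, and 0 pairs of arrays held identical values. With 3 arrays in each group, their number sets the limit on precision. The labels number the samples of a group but do not say that each came from a separate mouse. The p-values therefore rest on the spread between these samples, which may not be the spread between mice. A name exists here only for a gene that the authors listed as changed in at least 1 comparison, so the choice of these genes and the counts of gene lists are not independent evidence of a direction. Of 6 lung markers 1 carried a name, the surfactant protein gene Sftpa1, at a mean log2 signal of 11.11 ± 0.26 with bleomycin plus homoharringtonine, 10.47 ± 0.26 with bleomycin and 11.37 ± 0.08 in vehicle lungs (SD, n = 3 each).

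TGF-beta is secreted in a latent form held in the matrix, and integrins can release it by pulling on the latent complex. The freed ligand binds a pair of receptor kinases, which phosphorylate Smad proteins that enter the nucleus and switch on matrix genes. Fibronectin is the scaffold on which collagen and other matrix proteins assemble. Tenascin C is a large matricellular protein, one that alters how cells hold the matrix, and it is scarce in adult tissue and made again in wounds. TGFBI links collagens to cells through integrins, and CTGF, of the CCN family, binds growth factors, integrins and heparan sulfate and is also a classical target of the YAP and TEAD proteins.

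Each of the 4 probe sets is rated by the authors' deposited tables as type 1 for cross-hybridisation. By the coordinates in those tables, which name no genome build, Tnc (gene 21923) lies on the minus strand of chromosome 4 from 63959785 to 64047015. Fn1 (gene 14268) lies on the minus strand of chromosome 1 from 71585520 to 71653200. Tgfbi (gene 21810) lies on the plus strand of chromosome 13 from 56609559 to 56639562. Ctgf (gene 14219), now named Ccn2 in RefSeq, lies on the plus strand of chromosome 10 from 24595442 to 24598683. Of the probes in a set, 21 of 24 for Tnc, 40 of 41 for Fn1, 30 of 31 for Tgfbi and 21 of 24 for Ctgf matched the transcript directly.

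RefSeq promoters of GRCm38.p6 were matched for 2 of the 4 genes, Tnc and Tgfbi, and are shown because these genes were higher together after bleomycin, while Fn1 and Ctgf are named only. The 250 bases before the outer of the Tnc start sites (chr4:64047016-64047265, minus strand) and before the Tgfbi start site (chr13:56609336-56609585, plus strand) follow, 5′ to 3′. Capitals mark matches to the letters of a TATA box (TATAAA) in Tnc and of SMAD boxes (CAGAC, read here on the other strand as GTCTG) in Tgfbi. Whether these matches act as such sites was not tested.
Tnc: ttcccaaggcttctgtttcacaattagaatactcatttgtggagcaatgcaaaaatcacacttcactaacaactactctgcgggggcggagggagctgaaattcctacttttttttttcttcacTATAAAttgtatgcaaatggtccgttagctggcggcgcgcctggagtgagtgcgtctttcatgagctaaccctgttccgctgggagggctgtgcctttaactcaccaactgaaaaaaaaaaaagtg
Tgfbi: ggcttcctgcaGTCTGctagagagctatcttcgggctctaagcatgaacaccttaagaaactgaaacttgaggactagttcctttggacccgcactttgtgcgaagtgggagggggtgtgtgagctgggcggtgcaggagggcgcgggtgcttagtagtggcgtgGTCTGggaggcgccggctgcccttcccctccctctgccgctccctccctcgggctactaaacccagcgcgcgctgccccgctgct

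The Tnc stretch had a GC content of 44.8% and held TATAAA from base -126, counted from the start site. The Tgfbi stretch had a GC content of 62.4% and held CAGAC on the other strand from bases -239 and -85. In the whole 300-base window, which runs from 250 bases before to 50 bases after the start, Tnc also held CAGAC on the other strand from base 10. Counted from the inner Tnc start site (64046936), that CAGAC lies upstream, from base -70, another lies on the gene's own strand from base 40, and the TATAAA starts at -205. Close before the inner start site the sequence also reads TATATAA, which the search for TATAAA does not match. Searches covered both strands. CAGAC was in 49.6% and TATAAA in 13.6% of the 32851 mouse promoters of this length. The SMAD palindrome GTCTAGAC (0.213% of promoters), the AP-1 site TGANTCA (7.81%), the TEAD site GGAATG (14.7%) and the cyclic AMP response element TGACGTCA (1.79%) had no match in these windows of Tnc and Tgfbi.

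Tnc, which helps cells detach and migrate during repair, had log2 signals of 7.39, 6.48 and 7.68 on the bleomycin plus homoharringtonine arrays. On the bleomycin arrays it had 8.38, 9.20 and 8.98, and on the vehicle arrays 5.23, 4.99 and 4.96. The order of the groups was bleomycin, then bleomycin plus homoharringtonine, then vehicle, with no overlap between neighbouring groups. The nearest arrays of the 2 bleomycin-instilled groups were 0.70 log2 units apart, and those of the bleomycin plus homoharringtonine and vehicle groups 1.26. Group means were 7.18 ± 0.62 with bleomycin plus homoharringtonine, 8.85 ± 0.43 with bleomycin and 5.06 ± 0.15 in vehicle lungs (SD, n = 3 each).

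Fn1, the matrix scaffold, had log2 signals of 10.70, 9.88 and 10.68 on the bleomycin plus homoharringtonine arrays. On the bleomycin arrays it had 11.47, 11.56 and 11.36, and on the vehicle arrays 8.93, 8.79 and 8.95. The groups stood in the same order as for Tnc and did not overlap, with gaps of 0.66 between the bleomycin-instilled groups and 0.94 between bleomycin plus homoharringtonine and vehicle. Bleomycin plus homoharringtonine replicate 2 was low, and the other 2 arrays of that group lay close together. Group means were 10.42 ± 0.47 with bleomycin plus homoharringtonine, 11.46 ± 0.10 with bleomycin and 8.89 ± 0.09 in vehicle lungs (SD, n = 3 each).

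Tgfbi, the collagen-binding adhesion protein, had log2 signals of 8.47, 8.02 and 8.67 on the bleomycin plus homoharringtonine arrays. On the bleomycin arrays it had 9.29, 9.71 and 9.47, and on the vehicle arrays 7.70, 7.73 and 7.72. The groups again did not overlap, with a gap of 0.62 between the bleomycin-instilled groups and a narrower one of 0.29 between bleomycin plus homoharringtonine and vehicle. Group means were 8.39 ± 0.33 with bleomycin plus homoharringtonine, 9.49 ± 0.21 with bleomycin and 7.72 ± 0.015 in vehicle lungs (SD, n = 3 each).

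Ctgf, the CCN family modulator, had log2 signals of 8.87, 8.39 and 8.44 on the bleomycin plus homoharringtonine arrays. On the bleomycin arrays it had 9.16, 9.47 and 9.73, and on the vehicle arrays 7.18, 7.32 and 7.28. Its bleomycin-instilled groups came closest, with a gap of 0.30, against 1.07 between bleomycin plus homoharringtonine and vehicle. Group means were 8.57 ± 0.26 with bleomycin plus homoharringtonine, 9.46 ± 0.28 with bleomycin and 7.26 ± 0.08 in vehicle lungs (SD, n = 3 each). Across the 4 genes, replicate 2 was the lowest bleomycin plus homoharringtonine array in 4 of 4, replicate 1 the lowest bleomycin array in 3 of 4 and replicate 2 the highest bleomycin array in 3 of 4.

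**Figure D1:**
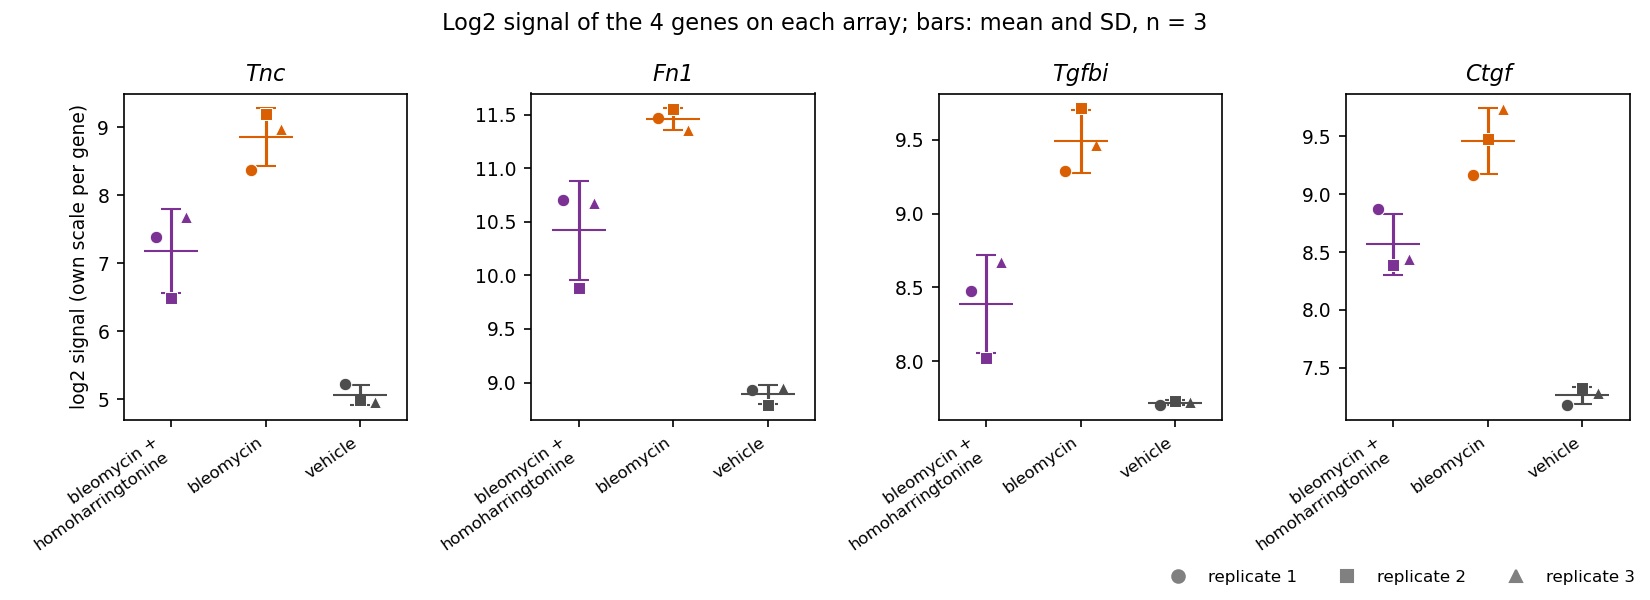
Log2 signal (y axis, own scale per gene) of Tnc, Fn1, Tgfbi and Ctgf on each of 9 arrays, by group on the x axis, with marker shapes for replicates 1 to 3 and bars for the mean and SD (n = 3). The bleomycin plus homoharringtonine arrays of each gene lie between the bleomycin and the vehicle arrays, and replicate 2 is the lowest of that group in 4 of 4 genes.

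The comparison of bleomycin with vehicle asked what the instillation did to the lung. All 4 genes rose. Tnc was 13.9-fold higher (95% interval 8.48 to 22.7), Fn1 5.95-fold (4.31 to 8.21), Ctgf 4.58-fold (3.49 to 6.01) and Tgfbi 3.42-fold (2.60 to 4.49). On the log2 scale these were changes of 3.79 (SE 0.31), 2.57 (SE 0.20), 2.20 (SE 0.17) and 1.77 (SE 0.17). limma's test with Benjamini-Hochberg adjustment over all 41345 probe sets gave an adjusted p of 0.00105 for Tnc, Fn1 and Ctgf and of 0.00145 for Tgfbi. By this test 3.37% of all probe sets were higher with bleomycin, and 13.9% had bleomycin arrays that all lay above the vehicle arrays, as the 4 genes did. The authors' deposited table lists all 4 as higher, as it does 2.19% of all probe sets. Ranked by log2 change among all probe sets, Tnc was number 3, Fn1 26, Ctgf 49 and Tgfbi 91. Over all probe sets the median log2 change was 0.015, against 2.38 for the 4 genes. In whole tissue, a change in the number of cells of a type and a change in RNA per cell cannot be told apart.

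Lungs given homoharringtonine after bleomycin were set against lungs given bleomycin alone to see the drug's effect after injury. The 4 genes had lower means with the drug and non-overlapping arrays, but none passed the threshold. The log2 change of Tnc was -1.67 (SE 0.31, 95% interval -2.38 to -0.96), a level 3.18-fold lower, with a limma adjusted p of 0.1. That of Tgfbi was -1.10 (SE 0.17, interval -1.5 to -0.71), 2.15-fold lower, with an adjusted p of 0.0682 from limma. For Fn1 it was -1.04 (SE 0.20, interval -1.51 to -0.57), 2.06-fold lower, and for Ctgf -0.89 (SE 0.17, interval -1.28 to -0.50), 1.85-fold lower, with limma adjusted p values of 0.11 and 0.104. Without adjustment, limma's p lay between 0.00015 for Tgfbi and 0.000742 for Fn1. Of all probe sets limma called 0.0556% lower in this comparison, and 7.79% had arrays of the drug group that all lay below the bleomycin arrays, as the 4 genes did. The median log2 change was -1.07 for the 4 genes, against -0.0042 over all probe sets. In the authors' deposited table, made with the local pooled error test, Tnc was listed at a fold of -3.18 with an adjusted p of 0.000318, and Fn1, Tgfbi and Ctgf were not listed. That table lists 0.16% of all probe sets as lower.

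The comparison of bleomycin plus homoharringtonine with vehicle asked how far the treated injured lung stood from the control lung. Tnc, Fn1 and Ctgf were higher than in vehicle lungs and passed the threshold, and Tgfbi did not. Tnc was 4.36-fold higher (95% interval 2.67 to 7.13, log2 change 2.12, SE 0.31), with a limma adjusted p of 0.0359. Fn1 was 2.89-fold higher (2.09 to 3.99, log2 change 1.53, SE 0.20), with a limma adjusted p of 0.0288, and Ctgf 2.47-fold (1.88 to 3.25, log2 change 1.31, SE 0.17), with 0.0283. Tgfbi stood at 1.59-fold (1.21 to 2.09, log2 change 0.67, SE 0.17), with a limma adjusted p of 0.124. Of all probe sets 0.193% were called higher, and 9.46% had arrays of the drug group that all lay above the vehicle arrays, as the 4 genes did. The authors' deposited table for this comparison lists Tnc (adjusted p 4.34e-10), Fn1 (1.63e-06) and Ctgf (0.00694) and leaves out Tgfbi, and lists 0.368% of all probe sets as higher. Without vehicle replicate 1, 2 or 3 limma called none of the 4 (adjusted p of Tnc, Fn1 and Ctgf 0.0793 to 0.0893, 0.112 to 0.139 and 0.147 to 0.17), nor without bleomycin replicate 2 (0.0507 to 0.0536) or bleomycin plus homoharringtonine replicate 3 (0.0952 to 0.12). The call of Tnc was also lost without bleomycin replicate 3 (limma adjusted p 0.0517) and bleomycin plus homoharringtonine replicate 1 (0.0731), that of Fn1 also without bleomycin plus homoharringtonine replicate 1 (0.0565), and those of Tnc and Fn1 in a fit on only the 6 arrays compared (0.0604 and 0.0669).

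**Figure D2:**
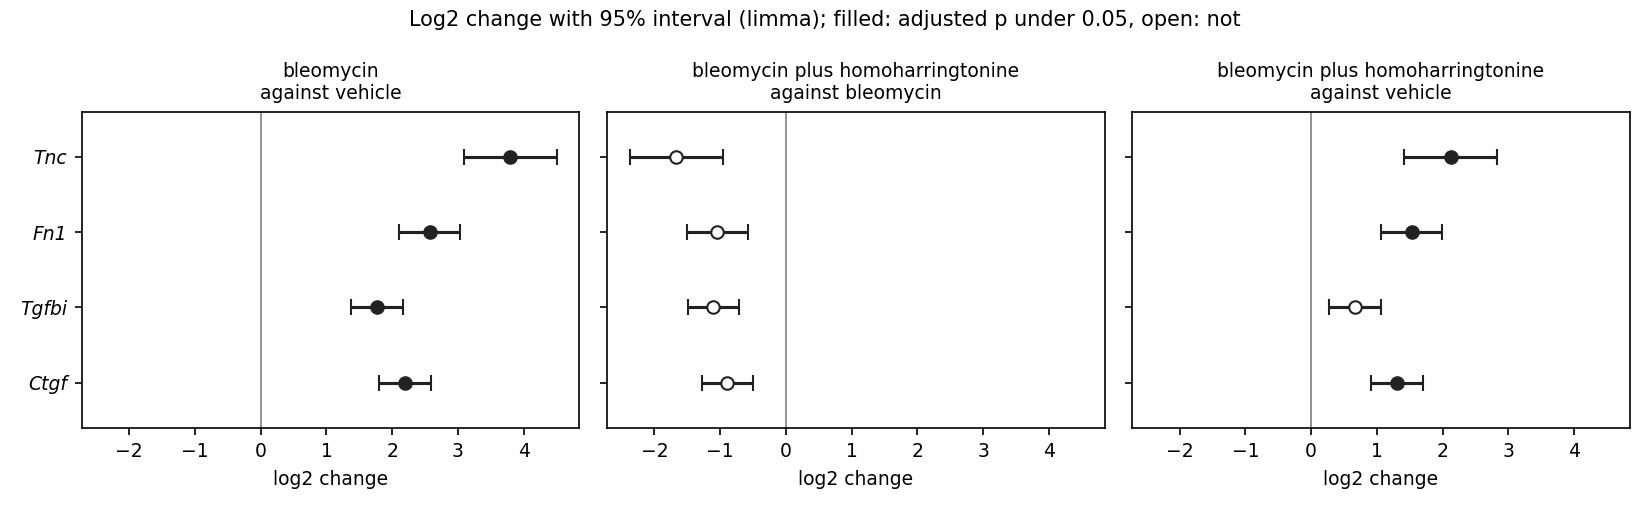
Log2 change (x axis) of each gene in the 3 comparisons, 1 panel each, with 95% intervals from limma on all 9 arrays, filled where the adjusted p is under 0.05 and open where it is not. The 4 changes are 1.77 to 3.79 for bleomycin against vehicle, -1.67 to -0.89 for bleomycin plus homoharringtonine against bleomycin and 0.67 to 2.12 for bleomycin plus homoharringtonine against vehicle.

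The comparisons share arrays in pairs, so their values are set side by side and not related to each other. The genes were also compared with one another within each array, by the difference between 2 genes' log2 signals, over 6 pairs of genes in 3 comparisons. With 3 arrays against 3 the exact two-sided permutation test cannot go below 0.1, its value for each pair without overlap. After adjustment over the 18 tests none went below 0.164. How often other pairs of probe sets did not overlap was not counted. For bleomycin against vehicle the log2 change of Tnc exceeded that of Fn1 by 1.22 (SE 0.26), that of Ctgf by 1.60 (SE 0.21) and that of Tgfbi by 2.02 (SE 0.17), and the arrays of the groups did not overlap for these pairs. The change of Fn1 exceeded that of Tgfbi by 0.80 (SE 0.12), also without overlap, and that of Ctgf by 0.38 (SE 0.22), with overlapping arrays. Tgfbi minus Ctgf gave -0.42 (SE 0.16) without overlap.

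Between bleomycin plus homoharringtonine and bleomycin, Tnc minus Tgfbi was -0.57 (SE 0.22), without overlap. Tnc minus Fn1 was -0.63 (SE 0.27) and Tnc minus Ctgf -0.78 (SE 0.37), each with overlapping arrays. The differences among Fn1, Tgfbi and Ctgf lay between -0.21 and 0.06, with SEs from 0.15 to 0.29 and overlapping arrays. Between bleomycin plus homoharringtonine and vehicle, Tnc exceeded Tgfbi by 1.45 (SE 0.19), Fn1 exceeded Tgfbi by 0.86 (SE 0.12), and Tgfbi minus Ctgf was -0.64 (SE 0.21). Tnc exceeded Fn1 by 0.59 (SE 0.15) and Ctgf by 0.82 (SE 0.36), all without overlap, while Fn1 minus Ctgf, at 0.23 (SE 0.23), had overlapping arrays.

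Genes with the most similar pattern were found by the root mean square difference of log2 values over the 9 arrays, after the mean of the vehicle arrays was subtracted from each gene, among 1612 named genes. Nearest to Tnc were Timp1 (0.324), which inhibits matrix metalloproteinases, the neural adhesion molecule Chl1 (0.493) and the metal-binding Mt2 (0.501). The vehicle mean of Chl1, 3.4, was near the lower quartile of the arrays (3.21 to 3.24). Nearest to Fn1 were C1qb (0.178), a chain of complement C1q, Col1a1 (0.247), a chain of type I collagen, and AA467197 (0.253). Nearest to Tgfbi were the collagen chain gene Col5a1 (0.121), the galectin Lgals1 (0.145) and the lipid-cleaving enzyme Pla2g7 (0.161). Nearest to Ctgf were thrombospondin 1 (Thbs1, 0.268), the sterol enzyme Ch25h (0.273) and Mt1 (0.294). The nearest of the other members was Fn1 for Tnc, at 0.817, and Fn1 and Ctgf lay 0.356 apart.

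The 12 similar genes rose with bleomycin, where log2 changes lay between 1.68 for Col5a1 and 3.68 for Timp1. Of these genes, limma called only Mt2 lower with bleomycin plus homoharringtonine than with bleomycin (log2 change -2.32, adjusted p 0.0265). Against vehicle, bleomycin plus homoharringtonine lungs had higher C1qb (1.42, limma adjusted p 0.0428), Col1a1 (1.37, 0.0404) and AA467197 (1.46, 0.0359), the 3 genes nearest to Fn1. With 1 array left out, these calls held for C1qb only without bleomycin plus homoharringtonine replicate 2, for AA467197 only without bleomycin replicate 1 and for Col1a1 in 3 of 9 fits (without bleomycin replicate 1 or 3 or bleomycin plus homoharringtonine replicate 2), and limma's adjusted p reached 0.179, 0.17 and 0.172 over all alternatives. The Mt2 call held in 2 of 9 such fits, without bleomycin replicate 1 or bleomycin plus homoharringtonine replicate 3, and its adjusted p reached 0.234. Such similarity was chosen on these 9 arrays and is a description.

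**Figure D3:**
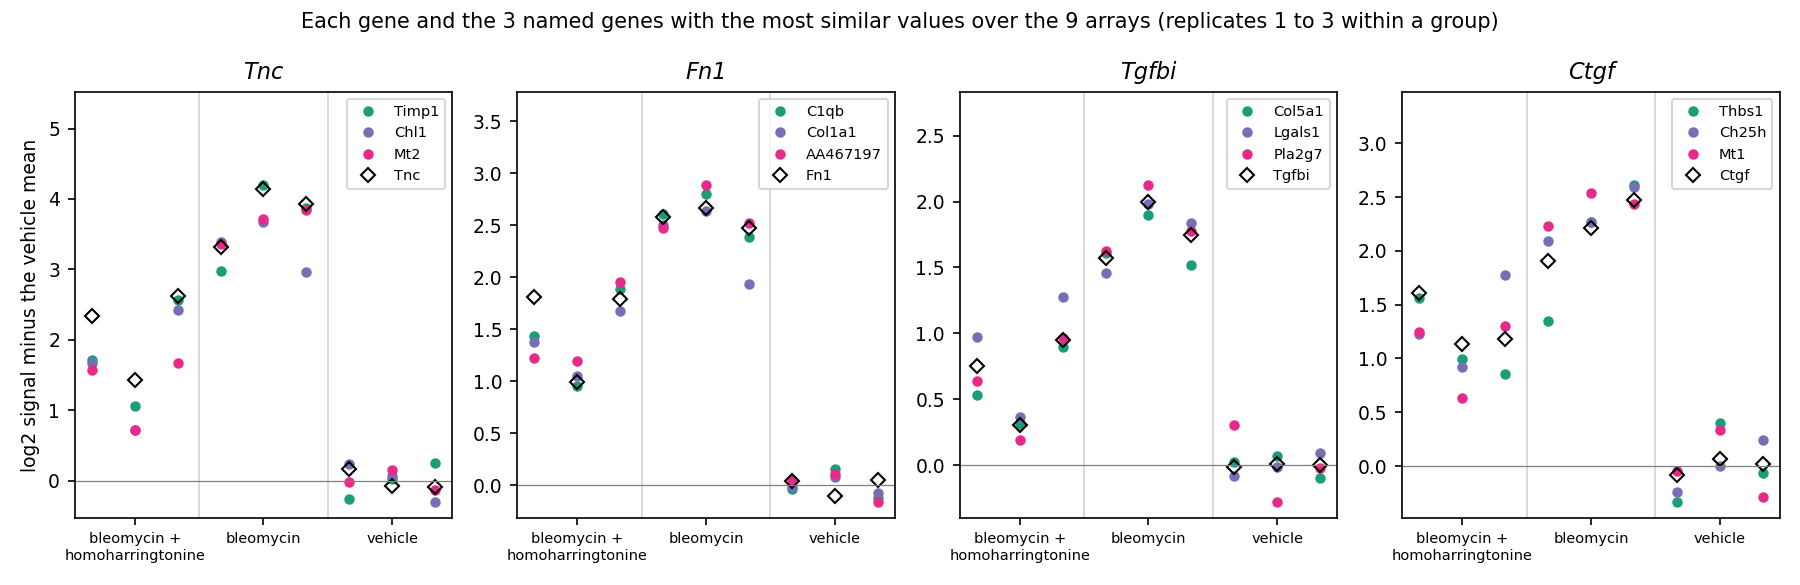
Log2 signal minus the vehicle mean (y axis) of each gene (open diamonds) and of its 3 most similar named genes (coloured points) on the 9 arrays, grouped on the x axis with replicates 1 to 3 in order. The closest set is that of Tgfbi, at root mean square differences of 0.121 to 0.161, and the widest that of Tnc, at 0.324 to 0.501.

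Genes around the 4 were grouped by role, and counts cover members with a name. Among named genes at large, 33.2% were higher and 46.6% lower with bleomycin than with vehicle by limma's test, and their median log2 change was -0.67. With bleomycin plus homoharringtonine the named genes had a median log2 change of 0.18 against bleomycin, where limma called 0.524% of them higher and 1.05% lower, and of -0.25 against vehicle, where it called 2.94% higher and 4.45% lower. Fitted without the vehicle arrays, on 6 arrays, limma called 0 probe sets for bleomycin plus homoharringtonine against bleomycin (3817 at an unadjusted p under 0.05), so each call named in that comparison needs the vehicle arrays in the estimate of the spread. With 1 array left out, the calls of Fst, Itgam, Itgb3, Calcrl and Ms4a1 given below for that comparison held only without bleomycin replicate 1 (1 of 9 fits each), with adjusted p up to 0.256 over all alternatives.

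Of 14 ligands and latency proteins 4 were measured under a name. The TGF-beta ligand genes Tgfb1, Tgfb2 and Tgfb3 carried no name and were not among them. With bleomycin, limma called 2 of the 4 higher and 1 lower, at a median log2 change of 0.39. Inhba, which encodes the activin A subunit, rose by 1.62 (adjusted p 0.0134) and the latent TGF-beta binding protein gene Ltbp2 by 1.71 (0.0136), while the ligand Bmp6 fell by 1.84 (0.00358), in a comparison where 4.42% of all probe sets were called lower. Ltbp4, another latency protein, stood at -0.84 (0.0584). None was called in either comparison of bleomycin plus homoharringtonine, where medians were -0.06 against bleomycin and 0.25 against vehicle. Only 1 of these genes was called for bleomycin without vehicle replicate 2 or without vehicle replicate 3.

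Of 24 receptors, Smads and regulators 9 were measured, of which 3 rose and 5 fell with bleomycin, at a median log2 change of -0.83. Tgfbr1, Tgfbr2, Smad2, Smad3, Smad4 and Smad7 carried no name, so these counts do not cover them. The 5 that fell were Acvrl1, Smurf2, Smad6, Eng and Bmpr2. Fst, which traps activin, rose by 2.56 (limma adjusted p 0.00124) and the secreted glycoprotein gene Fstl1 by 1.44 (0.000681). The endothelial receptor gene Acvrl1 fell by 1.29 (limma adjusted p 0.00105) and the ubiquitin ligase gene Smurf2 by 0.83 (0.00445). Fst was the only one called with bleomycin plus homoharringtonine against bleomycin, at a log2 change of -1.98 (limma adjusted p 0.0439), beside a median of 0.13 for the group. Against vehicle, at a median of -0.56, Fstl1 was called higher in the bleomycin plus homoharringtonine lungs (0.78, limma adjusted p 0.0275) and Acvrl1 lower (-0.83, 0.0288, beside 0.312% of all probe sets and 4.45% of named genes called lower). With 1 array left out these calls held in 4 of 9 fits each, for Fstl1 without a bleomycin array or bleomycin plus homoharringtonine replicate 2 and for Acvrl1 without a bleomycin array or bleomycin plus homoharringtonine replicate 1, and the adjusted p of each reached 0.147.

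Of 21 receptors that bind these matrix proteins or release TGF-beta 8 were measured, of which 5 rose and 3 fell with bleomycin, at a median log2 change of 0.68. Itgam, the leukocyte integrin subunit, rose by 1.66 (limma adjusted p 0.0022) and the scavenging receptor gene Lrp1, which binds CTGF, by 0.74 (0.00867). The integrin subunit genes Itga1 and Itga8 fell by 1.47 and 1.65 (limma adjusted p 0.00197 and 0.00324). Bleomycin plus homoharringtonine lungs had lower Itgam than bleomycin lungs (-1.63, limma adjusted p 0.0316) and lower Itgb3 (-0.87, 0.0448), the beta subunit of a receptor for fibronectin and tenascin C. The median of the group was -0.39 in that comparison and -0.10 against vehicle, where none was called. Without vehicle replicate 2, 5 of the 8 were called for bleomycin against vehicle.

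Of 23 other TGF-beta targets 17 were measured. With bleomycin 15 rose and none fell, and the median log2 change was 1.62, with a range from 0.77 to 3.68. Col1a1 rose by 2.36 (limma adjusted p 0.00115), the smooth muscle protein gene Tagln by 1.20 (0.00169), the collagen cross-linking enzyme gene Lox by 2.78 (0.00179) and Timp1 by 3.68 (0.0022). In bleomycin plus homoharringtonine lungs 17 of 17 had lower means than in bleomycin lungs, and limma called none of them. Their median log2 change was -0.76, beside -0.0042 over all probe sets and 0.18 over named genes. How many of all probe sets had lower means was not counted. This comparison and that of bleomycin with vehicle share the bleomycin arrays, so their directions are not independent. The same genes had a median of 0.83 against vehicle, where Col1a1 was the only one called, with the limits given above (1.37, limma adjusted p 0.0404).

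Of 23 symbols for other matricellular genes 9 were measured, of which 6 rose and 2 fell with bleomycin, at a median log2 change of 1.16. The symbols include older and newer names of the same gene, such as Cyr61 and Ccn1, so the genes are fewer than 23. Spp1 (osteopontin) rose by 4.54 (limma adjusted p 0.000224), Thbs1 by 2.08 (0.01) and Sparcl1 by 0.66 (0.00567), while Thbs3, another thrombospondin, fell by 1.35 (0.0189). None was called for bleomycin plus homoharringtonine against bleomycin, at a median of -0.55. Against vehicle, at a median of 0.60, Spp1 alone was called (3.34, limma adjusted p 0.00245), as it was in 9 of 9 fits with 1 array left out. The calls for bleomycin numbered 5, 3 and 3 without vehicle replicates 1, 2 and 3, and 4 and 5 without bleomycin replicates 2 and 3.

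Of 19 matrix partners of fibronectin and tenascin C 12 were measured, of which 9 rose and 1 fell with bleomycin, at a median log2 change of 1.15. The fibrillin gene Fbn1 rose by 1.55 (limma adjusted p 0.00131) and the collagen chain genes Col6a3, Col5a1 and Col5a2 by 1.44, 1.68 and 2.04 (0.00134, 0.00141 and 0.00172). None was called for bleomycin plus homoharringtonine, where the medians were -0.69 against bleomycin and 0.50 against vehicle. Of 14 symbols for other targets of YAP and TEAD, which also hold both Cyr61 and Ccn1, 5 were measured. Of these 5 genes 3 rose and 1 fell with bleomycin, at a median of 1.16. The clotting initiator gene F3 rose by 1.89 (limma adjusted p 0.00394), the adenosine-producing enzyme gene Nt5e by 1.5 (0.0103) and the CCN family gene Cyr61 by 1.16 (0.0488), and Crim1 fell by 0.77 (0.0368). None of these 5 was called for bleomycin plus homoharringtonine, where the medians were -0.82 against bleomycin and 0.59 against vehicle. Of these 5 genes 2 were called for bleomycin in the fit on its 6 arrays and 2 without any 1 of vehicle replicates 1, 2 and 3, bleomycin replicates 2 and 3 or bleomycin plus homoharringtonine replicate 2. Some genes stand in several groups, among them Thbs1, Inhba, Ltbp2, Pmepa1 and Cyr61.

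**Figure D4:**
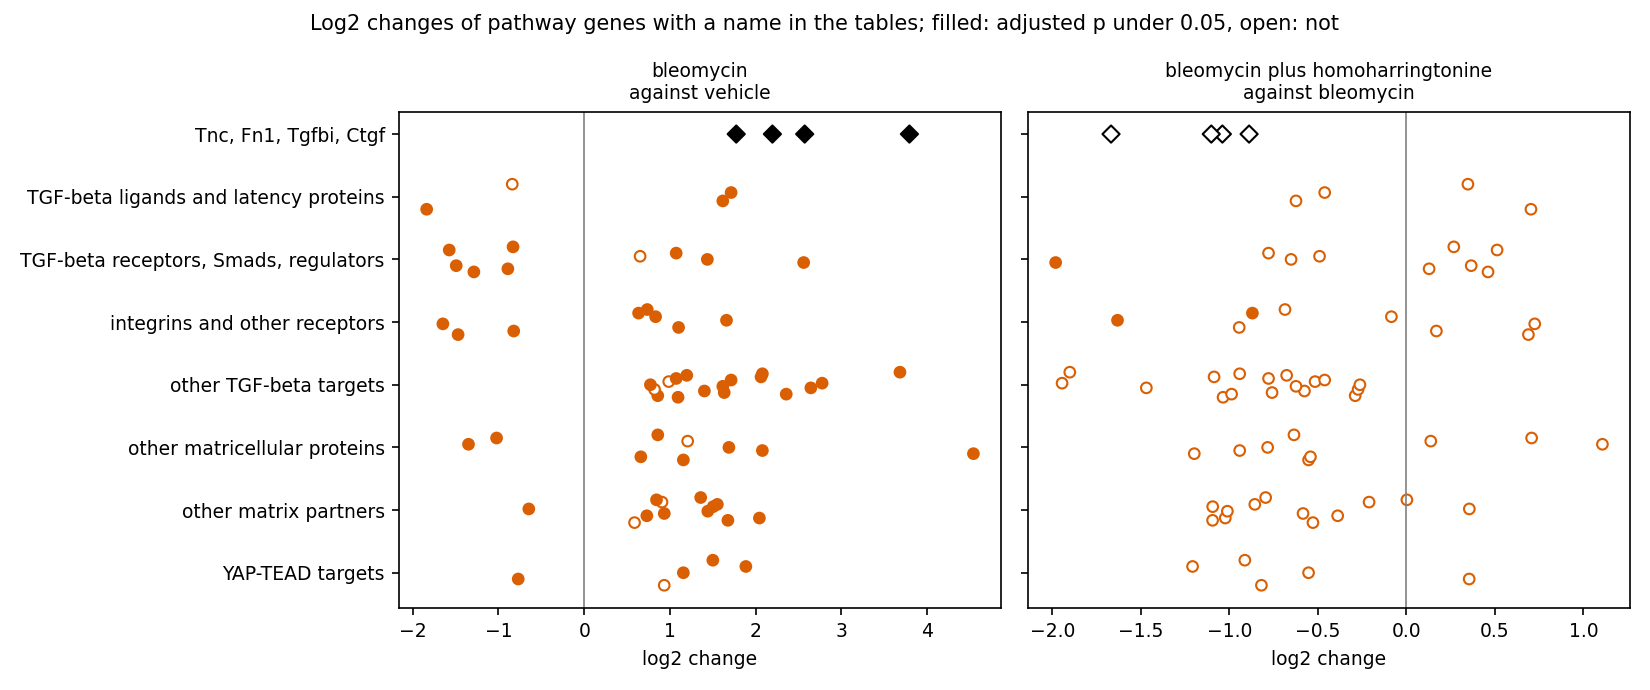
Log2 change (x axis) of the 4 genes (diamonds) and of the named genes of 7 groups around them (circles) for bleomycin against vehicle and for bleomycin plus homoharringtonine against bleomycin, filled where limma's adjusted p is under 0.05. The other TGF-beta targets lie above 0 in the first panel, 15 of 17 filled, and below 0 in the second, with 0 filled. The panels share the bleomycin arrays, so these directions are not independent.

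Markers of cell types that make these proteins or share the tissue moved in the same comparisons, and their part in the changes of Tnc, Fn1, Tgfbi and Ctgf was not tested. Only markers that the authors listed as changed carry a name and count as measured. With bleomycin limma called 33.2% of named genes higher and 46.6% lower, and 3.37% and 4.42% of all probe sets. Of 10 macrophage and monocyte markers 7 were measured and 7 rose with bleomycin. Their summed linear signal was 1020 to 1382 with bleomycin plus homoharringtonine, 1914 to 2610 with bleomycin and 588 to 641 in vehicle lungs. The smooth muscle and myofibroblast markers Acta2 and Tagln, 2 of 5, both rose with bleomycin, and their sums were 363 to 418 with bleomycin plus homoharringtonine, 648 to 903 with bleomycin and 298 to 410 in vehicle lungs. Of 5 fibroblast markers 3 were measured, and Col1a2 rose, Tcf21 fell and Lum was not called. Their sums were 550 to 766 with bleomycin plus homoharringtonine, 690 to 1069 with bleomycin and 414 to 508 in vehicle lungs. These sums mostly follow Col1a2, whose mean log2 signal with bleomycin was 9.67, beside 6.04 for Tcf21 and 5.24 for Lum. Col1a2, Acta2 and Tagln were also counted among the other TGF-beta targets above.

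Markers of the vessel wall and the alveolar lining went the other way from the 4 genes, in a comparison where limma called 46.6% of named genes lower. All 5 endothelial markers fell with bleomycin, with sums of 3149 to 4358 with bleomycin plus homoharringtonine, 2204 to 2576 with bleomycin and 5767 to 5970 in vehicle lungs. Of 5 type 2 alveolar markers 3 were measured and fell, with sums of 2947 to 4736 with bleomycin plus homoharringtonine, 1766 to 2964 with bleomycin and 4684 to 5147 in vehicle lungs. The type 1 marker Rtkn2, the only 1 of 5 measured, fell as well. The B cell markers (4 of 4 measured), the NK cell markers (2 of 3) and 2 of 3 measured cardiac markers fell, and of 3 measured neutrophil markers Mmp8 rose. The 3 neutrophil markers had log2 changes of -1.09 (Mmp8), -1.71 (S100a8) and -1.75 (S100a9) with bleomycin plus homoharringtonine against bleomycin. Limma called none of these (adjusted p 0.108, 0.251 and 0.203). The arrays of the 3 markers did not overlap, as for 7.79% of all probe sets in this direction. The summed signal of the neutrophil markers was 93.6 to 112 with bleomycin plus homoharringtonine, 143 to 444 with bleomycin and 76.5 to 128 in vehicle lungs. The macrophage markers had a median log2 change of -0.80 in that comparison. Neither of 2 liver markers carried a name. With bleomycin plus homoharringtonine against bleomycin limma called 1 of the 7 macrophage and monocyte markers lower, the leukocyte integrin subunit gene Itgam. Against vehicle Itgam had a log2 change of 0.03, beside a median of 0.89 for these 7 markers. Against bleomycin limma also called 1 endothelial marker higher (Calcrl, log2 change 0.91, adjusted p 0.046) and 1 B cell marker higher (Ms4a1, 1.55, 0.0448), beside 0.0387% of all probe sets and 0.524% of named genes called higher.

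In the authors' deposited table of KEGG pathways for bleomycin against vehicle Fn1 stood in 12 pathways, Tnc in 5, Ctgf in 2 and Tgfbi in 0. Tnc and Fn1 shared ECM-receptor interaction, with 29 of 88 genes listed and a false discovery rate of 7.39e-18 in the authors' deposited table. Ctgf stood in the apelin pathway (15 of 137 genes, false discovery rate 0.00017) and the Hippo pathway (10 of 157, 0.0694) of the authors' deposited table. For bleomycin plus homoharringtonine against bleomycin the authors' deposited table placed Tnc in 5 pathways. Among them was ECM-receptor interaction, with 4 of 88 genes and a false discovery rate of 0.0174, and the rates of the others ran from 0.0554 to 0.181. For bleomycin plus homoharringtonine against vehicle the authors' deposited table ranked focal adhesion number 1 of 172, with Tnc and Fn1 among 8 of 201 genes and a false discovery rate of 0.00084.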

How the data were processed

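Total RNA of 9 mouse lung samples was measured on Affymetrix whole-transcript arrays. The submitters' processing notes name Affymetrix Power Tools and R 3.5.1, and neither the normalization nor the genome build is given in the sources used here. The values the authors deposited are log2 signals of 41345 probe sets, from 0.908 to 13.68, taken as log2 from that range and from the file headers. Per the file headers, the authors' comparison tables add a score (the local pooled error statistic), a signed linear fold change and adjusted p-values for the probe sets they list, and their pathway tables hold p-values, false discovery rates and gene counts. The deposited folds equalled differences of group means of the log2 values to within 4.71e-07 log2 units. Gene names came only from those tables (2010 of 41345 probe sets, 4.86%), and 0 columns of values had no sample.

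With limma 3.58.1 in R 4.3.3, 1 mean per group was fitted on all 9 arrays and moderated with eBayes. Tests were 2-sided, with Benjamini-Hochberg adjustment over all 41345 probe sets within each comparison, at a threshold of 0.05. Residual degrees of freedom were 6 and prior degrees 2.66. A gene with several named probe sets was taken at the one with the highest mean. Differences between genes were tested with exact permutation of the arrays in Python 3.11.15 with scipy 1.17.1. Dim probe sets were kept. Promoters came from RefSeq. Protein sequences and list genes without a name were not analysed here. The code was tested on simulated data.

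The 4 genes, the gene lists and the cell type markers were chosen with earlier results of these data known. Named beside the 4 genes were, by rule, the 3 most similar named genes of each (predicted genes left out), the 4 measured genes of each list with the smallest p for bleomycin against vehicle, any gene of a list past the threshold for bleomycin plus homoharringtonine against bleomycin, and the markers. Alternatives were a fit on the 6 arrays compared, a robust prior with a trend, weights per array, quantile normalization, centring on the median, dim probe sets left out (mean under 3.24, the 25th percentile), the replicate number as a block, and each array left out. Same-numbered samples of different groups did not deviate together (correlations -0.137 to 0.0934 over 9 pairs), so the replicate numbers were not taken as a pairing.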

Additional observations from a re-analysis of the deposited data

How the results depend on the processing

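For bleomycin against vehicle the calls of Tnc, Fn1, Tgfbi and Ctgf held in all 28 fits under other settings and in all 36 fits with 1 array left out (limma adjusted p 0.000301 to 0.0106). For bleomycin plus homoharringtonine against bleomycin none of the 4 was called in any of the same 28 and 36 fits (limma adjusted p 0.0514 to 0.318), and none changed direction. For bleomycin plus homoharringtonine against vehicle 5 of 28 and 18 of 36 fits kept the direction and lost a call. The fit on 6 arrays left the log2 change of Tnc at 2.12 (limma adjusted p 0.0604) and of Fn1 at 1.53 (0.0669). The replicate block left Tnc at 2.12 (limma adjusted p 0.0849), Fn1 at 1.53 (0.0733) and Ctgf at 1.31 (0.0796). With 1 array left out the log2 changes were 1.88 to 2.47 for Tnc, 1.39 to 1.80 for Fn1 and 1.16 to 1.39 for Ctgf, and a group left with 2 arrays was fitted with the spread of all groups.

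The number of probe sets called for bleomycin plus homoharringtonine against bleomycin was 39, against 0 in the fit on 6 arrays, 16 with array weights, 69 without dim probe sets, 0 with the replicate block (4410 at an unadjusted p under 0.05) and 0 to 181 with 1 array left out, the highest without bleomycin replicate 1. For bleomycin plus homoharringtonine against vehicle it was 209, against 385 with array weights, 358 without dim probe sets, 22 with the replicate block and 7 to 257 with 1 array left out. For bleomycin against vehicle it was 3218, against 2175 to 3688 under other settings and 1136 to 3396 with 1 array left out, the lowest without vehicle replicate 3. Settings that test fewer probe sets adjust over fewer, and otherwise the cause was not tested. Counts of the gene groups, and calls of single genes beside the 4, under other settings were added after seeing the data. With 1 array left out they were 1 to 4 for ligands (3 with all arrays), 5 to 8 for integrins and related receptors (8), 3 to 8 for matricellular genes (8) and 2 to 4 for targets of YAP and TEAD (4), the last also 2 in the fit on 6 arrays and with the replicate block. Of 126 alternative values of the differences between members, also added after seeing the data, 3 changed sign and 0 moved by more than the spread between replicates.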
